A study of Homo sapiens with 7 samples.

Results

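The regions described here are NuMA peaks that were called with an antibody to the C terminus of the protein and were met by no peak of an antibody to its N terminus. They were selected by the overlap of the deposited peak lists, with 1 bp counting as shared, on chromosomes 1 to 22, X and Y. Of the 14240 C-terminal peaks, 3842 (27.0%) overlapped none of the 19518 N-terminal peaks, and the other 10398 are called shared peaks below. All libraries were labelled as CUT&Tag assays of HCT116 cells, a long-established line from a human colon tumour, made from 10000 cells each. In CUT&Tag, an antibody guides the Tn5 transposase to cut and tag the DNA beside the bound protein. Both NuMA libraries came from wild type cells and were single libraries. Histone H1 was profiled in 2 wild type libraries, titled NC, and in 2 libraries with the genotype NuMA depletion, titled AID. The labels did not spell out AID or NC, and did not say whether the replicates were separate cultures, so any p-value between libraries measures only their spread, which may be technical. A library titled IgG was not analysed here. Peak names in both NuMA lists carried the word ChIP-seq, whereas those of the H1 lists carried Cuttag, and the labels give CUT&Tag for all.

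NuMA is a very long coiled-coil protein with a globular head at its N terminus and a tail at its C terminus. It organises the poles of the mitotic spindle and fills much of the nucleus between divisions. Its C-terminal tail carries the nuclear localisation signal and binds microtubules. Histone H1 is the linker histone, which sits on the nucleosome where DNA enters and leaves it and helps nucleosomes to pack.

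The depth behind these calls was modest. The average background over the genome, recovered from the lists, put the N-terminal library at 1.66 times the depth of the C-terminal one. The median C-terminal peak held 27 fragments and the median N-terminal peak 58. The H1 lists held 4552 and 5553 peaks in wild type and 2616 and 1480 after NuMA depletion. No genome of the build hg19 was used, so regions are given by position and neither their genes nor their bases are described.

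The C-terminal-only regions were small peaks on a low background. Because the lists that chose them also gave these values, they are a description and carry no test. Their width ran from 439 to 4289 bp with a median of 564, against 808 bp in the shared peaks. The authors' fold and −log10 p together fix how many fragments a summit held and how many the peak calling expected there. The expected number is here called the background. Whether it was taken from the same library or from a control is not stated. The median region held 13 fragments over a background of 0.692, whereas the median shared peak held 33 over 5.93. The fold is the fragment number plus 1 over the background plus 1, so it was higher in the C-terminal-only regions, with a median of 6.77 against 4.98. Their −log10 p was lower, with a median of 11.3 against 14.3, and ranged from 5.34 to 87.1.

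A large share of the C-terminal-only regions stood on the lowest background the list knows, the average over the genome, which was 0.477 fragments. This held for 1404 of them (36.5%) and for 296 (2.85%) of the shared peaks. A background of at least 5 fragments was found for 235 (6.12%) of the C-terminal-only regions and 6090 (58.6%) of the shared peaks. On the floor the fold is set by the fragment number alone, so many regions carried the same value. The most frequent were 9 fragments with a fold of 6.77, found in 238 regions, and 8 fragments with a fold of 6.09, found in 208.

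C-terminal-only regions made up a share of the C-terminal peaks that fell with the number of fragments. It was 92.4% of the 890 peaks with 6 to 9 fragments and 76.3% of the 1955 with 10 to 14. It was 47.0% with 15 to 19 fragments, 16.2% with 20 to 29, 4.23% with 30 to 39 and 1.19% of the 3358 peaks with 40 or more. The same share by background was 82.6% on the floor and 1.84% at 10 fragments or more. By fold it had no such order, with 6.43% below 4, 45.0% between 6 and 8 and 43.4% between 8 and 12, and 157 of 627 peaks at 12 or more. A peak of high fold was therefore not more often C-terminal-only than one of middle fold, while a peak of few fragments was.

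**Figure D1:**
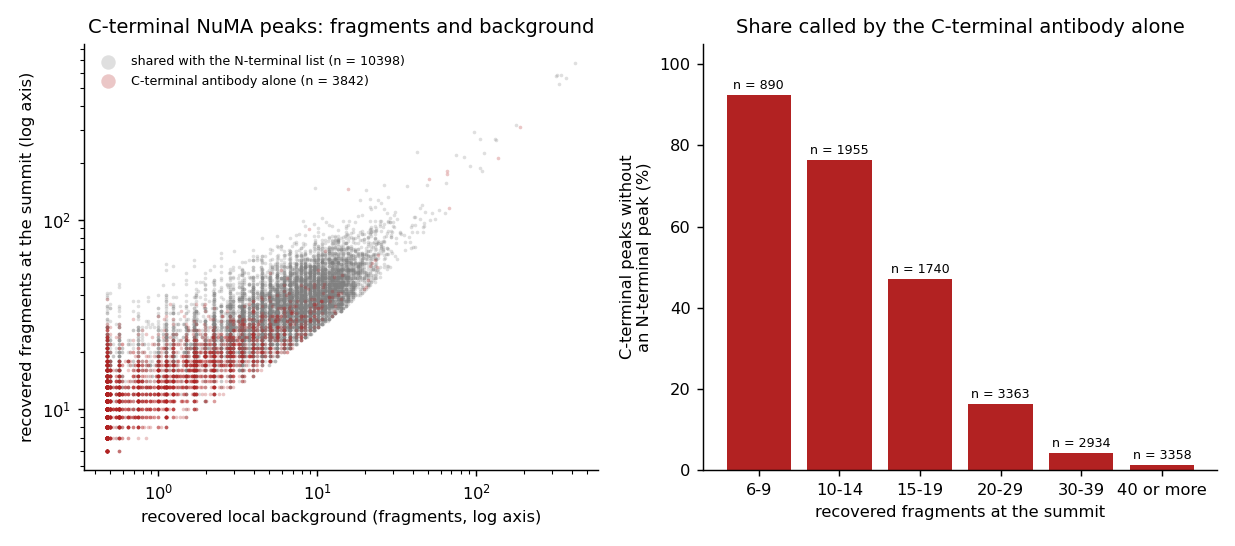
The left panel plots each C-terminal peak by its recovered background and its recovered fragments at the summit, both on log axes, in red for regions without an N-terminal peak (3842) and in grey for shared peaks (10398). The right panel gives the share of C-terminal peaks without an N-terminal peak by fragment number, which falls from 92.4% to 1.19%.

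The region of highest fold was chr17:41919347-41920467, with 38 fragments on the background floor of 0.477 and a fold of 26.4. The next was chr8:142047494-142048401, with 28 fragments and a fold of 19.6. Both chr5:70070650-70072109 and chr17:19091300-19092324 held 27 fragments on the floor, with a −log10 p of 38.7. The others of the 10 highest were chr16:85578115-85578814 (18.7), chr12:104680412-104681461 (18.6), chr6:157731590-157732031 (18.3), chr2:173111978-173112809 (18.3), chr6:32097467-32098341 (18.3) and chr8:145991452-145992333 (18.3). The 10 regions held 26 to 38 fragments, above the upper quartile of 18 for all C-terminal-only regions. Of the 10, 7 stood on the floor, and the others had backgrounds of 0.494 to 0.692. Their distance to the nearest N-terminal peak ranged from 0.92 to 140.48 kb, and 5 of them lay within 10 kb of one. An H1 peak lay on 2 of the 10. On chr17:41919347-41920467 it was called in wild type replicate 1 alone, with a fold of 6.16, and on chr6:157731590-157732031 in all 4 H1 lists.

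The widest region, chr5:34189273-34193561, spanned 4289 bp and held 31 fragments with a fold of 15.1. It was followed by chr16:89811052-89813849 (2798 bp, 17 fragments), chr19:298394-301190 (2797 bp, 16 fragments), chr5:69194806-69197078 (2273 bp, 29 fragments) and chr5:70072900-70075125 (2226 bp, 24 fragments). The last lies beside chr5:70070650-70072109, named above. Both, with chr5:69194806-69197078, belong to a stretch of 5q13 that is known for large duplicated segments, where reads are hard to assign to 1 copy.

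Most C-terminal-only regions lay in the neighbourhood of N-terminal peaks. The median gap to the nearest N-terminal peak was 6896 bp. Of the 3842 regions, 471 (12.3%) lay within 1 kb of one, 1623 (42.2%) within 5 kb and 2222 (57.8%) within 10 kb. N-terminal peaks stood within 10 kb on both sides of 1012 regions (26.3%). A shared C-terminal peak lay within 10 kb of 1625 regions (42.3%). At the other end, 353 regions (9.19%) were more than 100 kb from every N-terminal peak, and 24 of these more than 1 Mb. Regions near an N-terminal peak held more fragments, with a median of 18 within 1 kb, 15 between 1 and 5 kb and 11 between 100 kb and 1 Mb. The median fold had no single direction with distance. It was 6.23 within 1 kb, 6.81 at 1 to 5 kb, 7.45 at 5 to 10 kb, 6.77 in each class from 10 kb to 1 Mb and 6.09 beyond 1 Mb.

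At the limit of the rule, the nearest regions outside held fewer fragments than the shared peaks with the fewest shared bases. The whole sets had the same order, with medians of 13 and 33 fragments. The nearest region, chr14:105687074-105687736, ended 1 bp from an N-terminal peak and had a fold of 4.61 with 15 fragments. The next were chr1:227059128-227059731, at 10 bp, with a fold of 4.03, and chr6:35054484-35055214, at 33 bp, with a fold of 4.92. Just inside the shared set, chr9:139367488-139368030 shared 19 bases with an N-terminal peak and had a fold of 3.42 with 21 fragments. It was followed by chr21:46712703-46713848 with 25 shared bases a fold of 3.18 and 29 fragments, and by chr7:44163612-44164149 with 28 shared bases, a fold of 2.55 and 28 fragments. Only 18 regions (0.469%) lay within 0.2 kb of an N-terminal peak, so few members rest on a gap of this size.

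Among the 471 regions within 1 kb, the highest fold after chr8:142047494-142048401 belonged to chr17:73689058-73689875 (18.3, at 643 bp). The other 3 of the highest 5 were chr1:16508165-16509005 (16.9, at 820 bp), chr15:101254832-101256790 (16.9, at 462 bp) and chr9:132251859-132252801 (16.2, at 385 bp). The N-terminal peaks next to these 471 regions were of ordinary strength for their list, with a median of 53 fragments against 58 in all N-terminal peaks. Far from all N-terminal peaks, the highest after chr2:173111978-173112809 were chr1:144685035-144685774 (16.6, at 164.47 kb), chr2:173116791-173117535 (16.2, at 145.29 kb), chr14:69014596-69015354 (16.2, at 240.89 kb) and chr4:49514539-49515356 (14.9, at 605.66 kb). The 2 on chromosome 2 are neighbours. The last lies beside the centromere of chromosome 4.

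Every chromosome held C-terminal-only regions, and the share of C-terminal peaks they made up varied. Chromosome 17 had the most, 411, followed by chromosome 19 with 389 and chromosome 1 with 355. As a share of all C-terminal peaks of the chromosome, chromosome 19 had the lowest value, 17.4% (exact 95% interval 15.9 to 19.1, counting error only). Chromosome 16 followed with 22.3% (19.9 to 24.8). The highest shares, apart from Y, belonged to chromosome 15 with 42.4% (36.4 to 48.6), chromosome 10 with 39.4% (34.6 to 44.4) and chromosome 21 with 38.7% (29.4 to 48.6). On Y it was 5 of 8 peaks, or 62.5% (24.5 to 91.5). Chromosome 19 thus held 17.7% of the shared peaks and 10.1% of the C-terminal-only regions, and chromosome 15 held 1.46% and 2.92%. The median gap to an N-terminal peak was shortest on chromosome 19, the human chromosome densest in genes, at 2.66 kb. It was 21.64 kb on chromosome 10 and 9.92 kb on chromosome 15. The median fold was 6.82 on chromosome 19, 6.77 on chromosome 10 and 6.75 on chromosome 15.

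**Figure D2:**
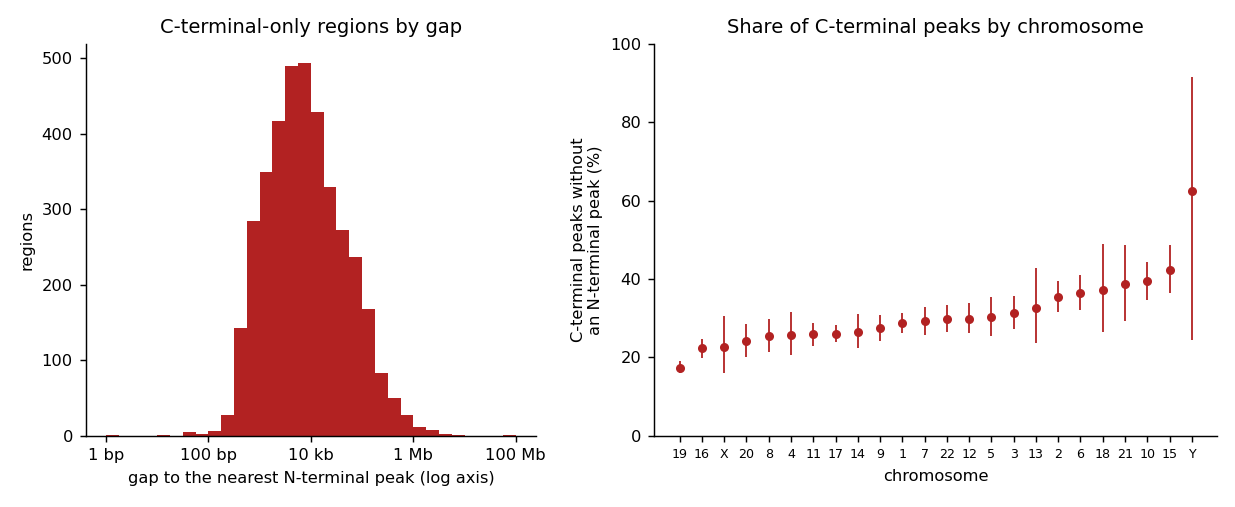
The left panel counts the 3842 C-terminal-only regions by the gap to the nearest N-terminal peak, on a log axis, with most between 1 and 100 kb. The right panel gives the share of C-terminal peaks without an N-terminal peak on each chromosome in rising order, with exact 95% binomial intervals, from 17.4% on chromosome 19 to 62.5% of 8 peaks on Y.

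Whether most C-terminal-only regions stood alone depended on the distance at which they were joined. When regions within 10 kb of each other were joined, 2862 stayed alone and 980 (25.5%) fell into 435 clusters of 2 or more. Of these, 88 clusters held 3 or more regions, and the largest held 6. No N-terminal peak lay inside 292 of the 435 clusters and 42 of the 88. With a joining distance of 50 kb, 1522 stayed alone and 2320 (60.4%) fell into 786 clusters, the largest of 12.

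The cluster on chromosome 20, chr20:48864544-48902465, held 6 regions over 37.9 kb with folds of 4.83 to 8.70. It had 3 N-terminal peaks between its regions, and 1 of them met a C-terminal peak. The cluster chr17:36583744-36615195 held 6 regions over 31.5 kb with folds of 4.79 to 11.5, 3 N-terminal peaks and no shared peak between them. One N-terminal peak followed the first of these regions, and the other 2 stood on either side of the fifth, without touching it. The cluster chr2:10505997-10537118 held 5 regions over 31.1 kb with folds of 3.20 to 11.4 and no N-terminal peak inside. The nearest one stood 2.46 kb from its end. Among the next, chr17:16921028-16932094 held 4 regions in 11.1 kb with folds of 6.77 to 16.9, each on the background floor and none with an N-terminal peak between them. The cluster chr6:32150194-32170304, in the major histocompatibility complex, held 4 regions with folds of 8.15 to 15.6 among 4 N-terminal and 5 shared C-terminal peaks. None of the regions in these 5 clusters met an H1 peak in any list, as was true of 95.4% of all C-terminal-only regions. H1 peaks of wild type replicate 2 and depleted replicate 1 lay on the shared peak in the chromosome 20 cluster.

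**Figure D3:**
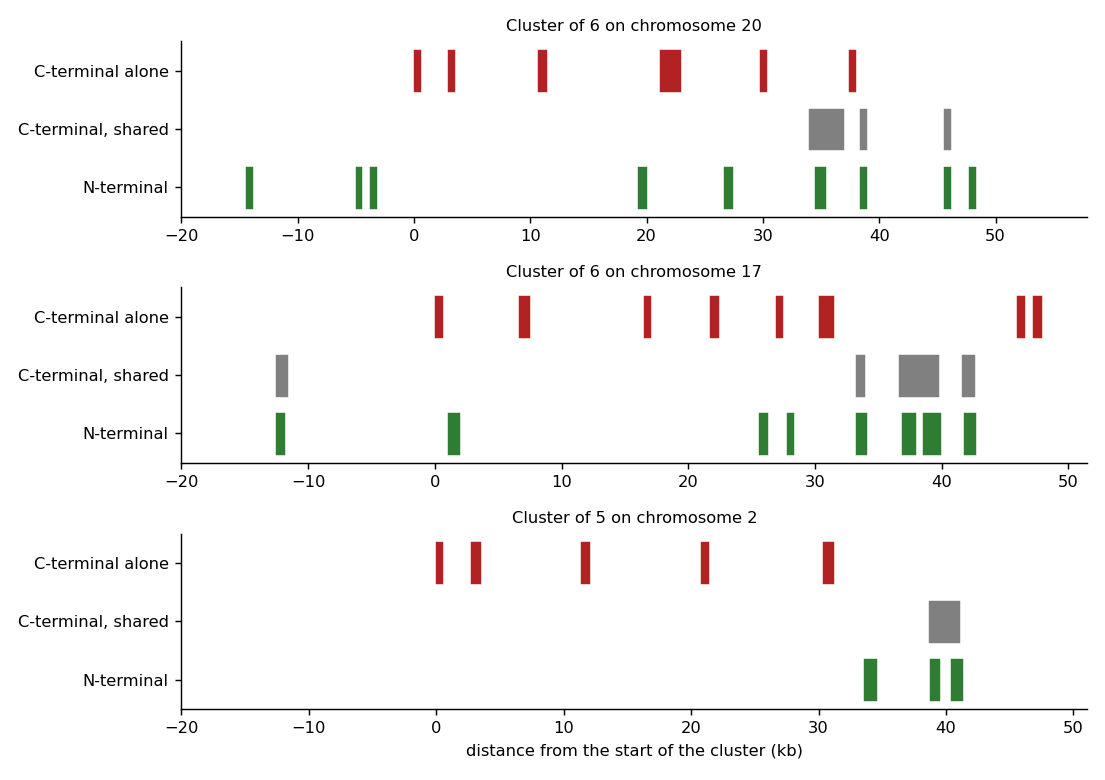
Maps of the 3 largest clusters of C-terminal-only regions (6, 6 and 5 regions), with distance from the cluster start in kb on the horizontal axis. Red boxes are C-terminal-only regions, grey boxes shared C-terminal peaks and green boxes N-terminal peaks, all drawn to scale, and the third cluster has no N-terminal peak inside.

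H1 peaks met a smaller share of C-terminal-only regions than of all C-terminal peaks. A comparison with the rest of the genome was not made. The H1 lists played no role in choosing the regions. In wild type replicate 1, 108 regions (2.81%, exact 95% interval 2.31 to 3.38) overlapped an H1 peak, against 5.53% of all C-terminal peaks. In wild type replicate 2 it was 121 (3.15%, 2.62 to 3.75), against 5.49% of all. In NuMA-depleted replicate 1 it was 61 (1.59%, 1.22 to 2.03), against 3.76%, and in NuMA-depleted replicate 2 it was 34 (0.885%, 0.614 to 1.23), against 1.64%. In each of the 4 libraries the share on C-terminal-only regions was thus below that of the whole list. These intervals cover counting error only. At least 1 H1 list met 177 regions (4.61%, against 9.02% of all C-terminal peaks), and 3665 had an H1 peak in none.

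Shared peaks met H1 peaks more often than C-terminal-only regions in all 4 libraries. Their shares were 6.54% and 6.36% in wild type and 4.57% and 1.91% after NuMA depletion. The mean difference over the 4 libraries was −2.74 percentage points (exact two-sided sign-flip permutation p = 0.13, the smallest that 4 libraries allow). Shared peaks are wider, and with the same window of 500 bp around each summit the difference was −2.20 points. It shrank to −0.70 points among peaks of 10 to 30 fragments, a range chosen after the values were seen, where C-terminal-only regions lay at 2.74%, 3.05%, 1.49% and 0.868% and shared peaks at 4.10%, 3.70%, 2.13% and 1.02%. It was −1.22 points for summits inside an H1 peak and −1.01 points with each H1 list reduced to its 1480 strongest peaks. It was larger, at −3.19 points, within the middle range of C-terminal folds, from the lower to the upper quartile, and −3.28 points where only a reciprocal overlap of 50% counted as shared. C-terminal-only regions had the lower share in all 4 libraries under each of these settings.

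The NuMA-depleted libraries gave lower H1 overlaps of the C-terminal-only regions, but the design could not reach a p under 0.333. Wild type libraries had a mean share of 2.98% ± 0.239 (SD, n = 2), NuMA-depleted ones of 1.24% ± 0.497 (SD, n = 2), and both depleted libraries lay below both wild type ones. The difference was 1.74 percentage points (exact two-sided permutation p = 0.333, the smallest that 2 against 2 libraries allow). The depleted H1 lists were also shorter. Once every list was trimmed to the 1480 peaks of lowest p, the shares were 0.937% and 1.12% in wild type and 1.04% and 0.885% after depletion. The difference was then 0.065 points (exact permutation p = 0.667) and the groups overlapped, so depletion and list length cannot be told apart here.

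Of the 68 regions met by an H1 peak in both wild type lists (1.77%, against 3.23% of all C-terminal peaks), 24 had a peak in each depleted list, 17 in a single one, and 27 had none there. The regions with a peak in at least 1 depleted list were 60.3% (exact 95% interval 47.7 to 72.0), against 64.8% (59.8 to 69.5) of shared peaks with H1 in both wild type lists. Depleted replicate 1 held 52.9% (40.4 to 65.2), against 58.4% (53.4 to 63.3) of the shared ones. Depleted replicate 2 held 42.6% (30.7 to 55.2), against 27.8% (23.4 to 32.5). A peak in both depleted lists was found on 25 regions (0.651%, against 0.969% of all C-terminal peaks). Between the kinds of peak the order was therefore opposite in the depleted replicates, and this difference was not tested. No C-terminal-only region had an H1 peak in both depleted lists and in neither wild type list, against 6 (0.0421%) of all C-terminal peaks.

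Where H1 peaks met C-terminal-only regions, they did so more often far from N-terminal peaks, although 47 of the 177 regions with H1 lay over 100 kb from one and the others closer. In wild type replicate 1 the share rose from 0.425% of regions within 1 kb of an N-terminal peak to 1.56% at 1 to 5 kb, 4.63% at 50 to 100 kb and 9.73% at 100 kb to 1 Mb. In wild type replicate 2 these shares were 0.637%, 1.48%, 5.69% and 9.42%. In depleted replicate 1 they were 0.212%, 0.434%, 2.85% and 6.99%, and in depleted replicate 2 they were 0.212%, 0.260%, 1.78% and 4.56%. Between 5 and 50 kb the shares lay between, apart from 0.167% at 5 to 10 kb in depleted replicate 2. All 4 libraries thus had their low values near N-terminal peaks and their high ones far away, also after NuMA depletion.

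The 353 regions over 100 kb from an N-terminal peak met H1 peaks in 10.8% and 10.2% of cases in wild type and in 7.93% and 5.38% after depletion. The 1623 regions within 5 kb did so in 1.23% and 1.23% and in 0.370% and 0.246%. The mean difference was 7.80 percentage points (exact two-sided sign-flip permutation p = 0.13, the smallest that 4 libraries allow). These limits of distance were chosen after the values were seen. It was 7.87 points with windows of 500 bp, 7.02 without chromosome 19 and 5.51 with H1 lists of equal length. The far regions also differed in other measures. The median width was 576 bp within 1 kb, 585 bp at 5 to 10 kb and 546 bp between 100 kb and 1 Mb, and the median background was 1.76, 0.477 and 0.477. The part of width, fold, fragments and background in the result was not tested.

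**Figure D4:**
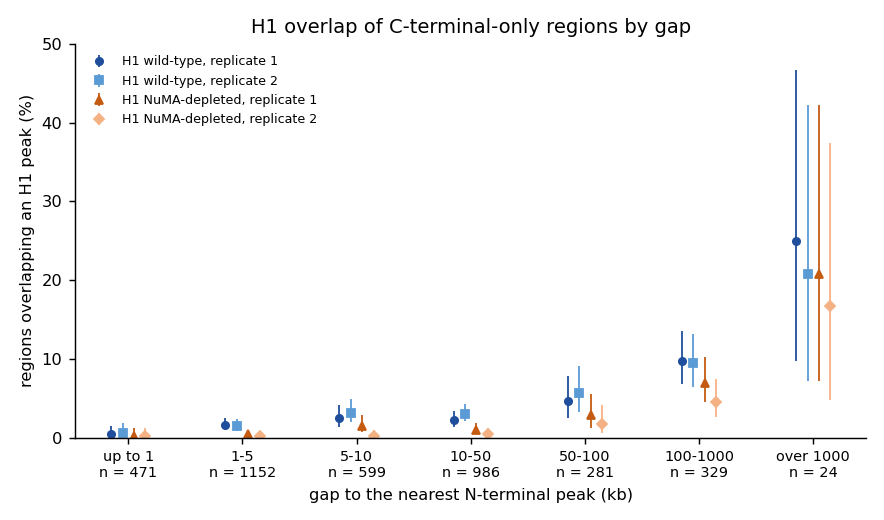
Share of C-terminal-only regions that overlap an H1 peak, by gap to the nearest N-terminal peak in kb, for 2 wild type (blue) and 2 NuMA-depleted (orange) H1 libraries, with exact 95% binomial intervals. The shares are under 2% up to 5 kb in all 4 libraries and 4.56% to 9.73% between 100 kb and 1 Mb, and the last group holds 24 regions only.

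An H1 peak in all 4 lists was found on 24 C-terminal-only regions (0.625%, against 0.758% of all C-terminal peaks). Of these, 17 lay over 100 kb from an N-terminal peak, and their median gap was 161.51 kb against 6.56 kb for regions without any H1 peak. Their C-terminal folds ran from 3.10 to 18.3. The highest was chr6:157731590-157732031, only 442 bp wide, with 30 C-terminal fragments. Its H1 peaks held 155 and 133 fragments in wild type and 106 and 97 after depletion. Next came chr4:49514539-49515356 (14.9), whose H1 folds were 8.91 and 9.06 in wild type and 8.27 and 7.43 after depletion. On chr8:80941917-80942752 (13.6) they were 8.30 and 6.50, and 6.78 and 6.39 after depletion. On chr8:86132626-86133298 (12.9) they were 9.83 and 9.87, and 10.8 and 8.06 after depletion. On chr19:27731796-27733970 (12.2) they were 11.9 and 11.8, and 11.4 and 13.3 after depletion. An H1 fold is the value of a peak in its own list, and no change between libraries is read from it.

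In 6 of the 24 regions the H1 peak held at least 400 fragments in both wild type libraries, between 495 and 3536, whereas in the other 18 it held 11 to 155. The 6 were chr1:564703-566770, chr1:567264-568124, chr1:121484228-121485291, chr7:61968903-61969772, chr11:51580093-51580605 and chr19:27731796-27733970. The first pair lies in a stretch of chromosome 1 known to be a nuclear copy of mitochondrial DNA, and the other 4 lie beside centromeres, which are rich in repeated sequence. On chr1:121484228-121485291 the C-terminal antibody had 45 fragments and the H1 libraries had 3536 and 3056 in wild type and 2609 and 1529 after depletion. The limit of 400 was chosen after the values were seen. Without these 6 regions the difference between far and near regions was 6.22 points, with far shares of 9.22%, 8.65%, 6.34% and 3.75%. The limit did not take out every far region beside a centromere. The region chr4:49514539-49515356, with 147 and 131 H1 fragments in wild type, stayed in.

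**Figure D5:**
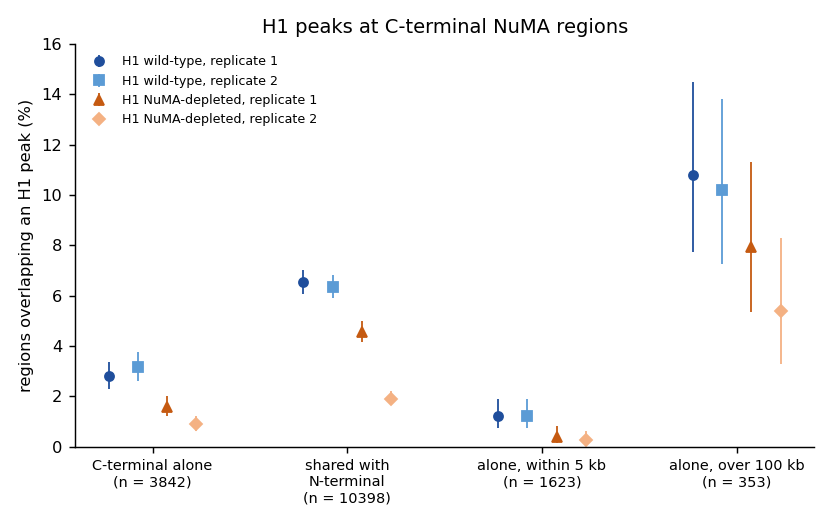
Share of C-terminal NuMA regions that overlap an H1 peak in each of the 4 H1 libraries, for C-terminal-only regions, shared peaks, and C-terminal-only regions within 5 kb of or over 100 kb from an N-terminal peak, with exact 95% binomial intervals. C-terminal-only regions lie below shared peaks in each library (for example 2.81% against 6.54%), and those over 100 kb away lie above both (10.8%). The shared peaks are not divided by distance here.

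Among the 27 regions with an H1 peak in both wild type lists and neither depleted list (0.703%, against 1.16% of all C-terminal peaks), the highest C-terminal fold belonged to chr5:34189273-34193561, the widest region. Its wild type H1 folds were 2.71 and 3.81. On chr7:8343165-8343946 (13.5) the wild type H1 peaks held 27 and 21 fragments, on chr12:6422239-6422971 (13.1) 24 and 23, on chr17:55926906-55928167 (12.4) 29 and 30, and on chr17:4634636-4635181 (10.2) 17 and 15. On the widest region they held 37 and 55. The median peak of the 2 wild type H1 lists held 19 and 18 fragments. A peak missing from the depleted lists does not by itself mean that H1 was missing, and this was not tested.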

How the data were processed

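The deposited files were narrowPeak lists, called per library. The submitters' processing notes name the tools MACS2, Bowtie2, Picard and Trim Galore, without versions, and the genome hg19. Whether a control entered the peak calling is not stated there and was not tested. The recovered background may therefore be that of a control rather than of the library itself. The fold is the authors' value at the summit, taken as the fragment number plus 1 over the background plus 1. The −log10 p and −log10 q are the authors' values. The deposited score, 10 times the −log10 q without decimals, was not used. Peak names carried q1e3, and no −log10 q was below 3.00. Rows on the mitochondrial genome were left out. Coordinates are 1-based.

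Tables were handled in pandas 2.3.3 and numpy 2.4.6 under Python 3.11.15, with tests in scipy 1.17.1 and plots in matplotlib 3.10.9. The procedures were tested on simulated data. Fragments were recovered as the whole number whose Poisson tail, with the deposited fold, is nearest to the −log10 p. The misfit was under 0.001 for 100.0% of the peaks of each list. Relative depth is the lowest background divided by the shortest peak (439 and 429 bp). Libraries were compared by exact permutation. Regions named were the highest by fold in each class, the widest, the largest clusters and those at the limit of the rule. The members, classes and tests were chosen with earlier results of these data known. Alternatives covered the sharing rule, the q limit, the H1 overlap rule, list length and each library left out. Gene, sequence and motif descriptions were not made, since no hg19 genome was used.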

Additional observations from a re-analysis of the deposited data

How the results depend on the processing

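The number of C-terminal-only regions depended on what counted as shared. It went from 3842 to 6413 with a reciprocal overlap of 50% and to 6841 with summits within 200 bp. It was 3371 with N-terminal peaks widened by 1 kb, 3390 with C-terminal peaks at a −log10 q of at least 5 and 3930 with such N-terminal peaks. Under these rules the differences in H1 overlap between wild type and NuMA-depleted libraries, and between C-terminal-only and shared peaks, kept their sign, and the difference between far and near regions was not computed. Between wild type and NuMA-depleted libraries the difference was 1.39 to 2.10 points with 1 library left out, and 1.74 with the replicate number as a block (paired exact permutation p = 0.5, the smallest possible). With H1 lists of equal length it was 0.065 points, and it changed sign with 1 library left out, from −0.026 to 0.156 points. Against shared peaks it was −3.31 to −2.41 points, and between far and near regions 7.22 to 8.69 points, with 1 H1 library left out. No alternative could leave out a NuMA library, since each antibody had 1.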

Other observations

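Seen from the H1 side, C-terminal-only regions took an even share of each H1 list. In wild type 2.42% and 2.22% of H1 peaks lay on them, and after NuMA depletion 2.41% and 2.36%. On shared peaks it was 14.9%, 11.9%, 18.2% and 13.4%. The sets differ in size, since C-terminal-only regions covered 2469.3 kb and shared peaks 10817.8 kb, and these shares are not corrected for it. The median distance between the H1 summit and the C-terminal summit was 198.5 to 216 bp in the 4 libraries. In depleted replicate 2 the 35 H1 peaks on C-terminal-only regions stood at the median percentile of 73.4 of their list by fold, in the other 3 libraries at 43.6 to 56.2.

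The higher H1 overlap of isolated regions was not limited to C-terminal-only regions. Of the 747 shared peaks over 100 kb from any other C-terminal peak, 187 and 149 (19.9%) met an H1 peak in wild type and 17.3% and 7.63% after depletion. Of the 6197 shared peaks within 5 kb of another C-terminal peak it was 2.5%, 2.89%, 2.0% and 0.662%. For the 477 C-terminal-only regions at over 100 kb it was 8.60%, 8.39%, 5.66% and 4.19%. In each library this was below the share of the shared peaks at the same distance.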
